A study of Mus musculus with 59 samples.

Results

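The hepatic response to dexamethasone was read from 10 of the 59 arrays of the series, namely the 5 arrays of mice injected with dexamethasone and the 5 arrays of mice injected with saline. The arrays were taken by their labels, and all 45037 probe sets that are not controls were compared. Each array held RNA from the liver of a male C57BL/6 mouse, 6 weeks old at the start and kept for 2 weeks on AIN-76A, a diet of purified ingredients. The tested mice received 1 mg/kg dexamethasone into the abdominal cavity and their livers were taken 8 hours later. The saline mice received the injected solution alone on the same diet and at the same time, and neither group was given arsenite. Mice within each group are labelled as biological replicates, and 5 arrays a group limit the precision. The spread behind each p-value was pooled over all 20 arrays of injected mice, which include the arsenite groups described next. A further pair of groups, also 8 hours after injection on AIN-76A with 5 arrays each, received 1 mg/kg dexamethasone together with 1 mg/kg sodium arsenite, or the arsenite alone. The other 39 arrays come from mice on AIN-76A or on LRD-5001 chow, without injection, with or without arsenite in food or water.

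Dexamethasone is a synthetic glucocorticoid. It binds the glucocorticoid receptor, a transcription factor held by chaperones in the cytoplasm, and the loaded receptor moves to the nucleus. There it binds DNA at palindromic response elements and raises transcription, or restrains other factors such as NF-κB, AP-1 and the interferon regulatory factors. In liver, glucocorticoids are known for raising glucose production and amino acid breakdown, for shaping fat storage, and for acting with cytokines on acute phase proteins.

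Levels are log2 values of background-corrected and normalized probe set intensity, so a difference of 1 is a 2-fold change. All differences are dexamethasone minus saline unless another pair is named, each with the standard error (SE) of a limma fit of all 20 injected arrays. A probe set was called when its limma p, adjusted over all probe sets by the Benjamini-Hochberg method, was under 0.05. Each gene is given by its brightest probe set, and levels of different genes are not comparable on such arrays. The RNA is of whole liver, so fewer cells of a type and less RNA per cell cannot be told apart.

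Hepatocyte RNA dominated all arrays, as the labelled tissue implies, and the mean level of 12 hepatocyte markers was 12.3 to 12.4 in dexamethasone arrays and 12.1 to 12.4 in saline arrays. Markers of pancreas, mesothelium, fat and bile duct had no called member. Several arrays stood apart from their own group. Over all 59 arrays, 1 component held 27.4% of the variance within groups among 5818 bright probe sets. The array with the lowest score of each group on it is called the array apart here. Among dexamethasone arrays that was C, at -22.9 against 1.75 to 8.06 for the other 4, and among saline arrays F, at -14.2 against -7.99 to 15.8. Likewise, array E of dexamethasone with arsenite had -22.1 and arsenite array D had -28.7. Saline array B lacked the acute phase levels of the other saline arrays, with lipocalin Lcn2 at 6.18, against 11.175 to 11.996 in the other 4. Saline array E carried granulocyte RNA, with the neutrophil granule gene Ngp at 7.33, against 2.04 to 2.46 in the other saline arrays. The part of these arrays in each result below was not tested beyond the values given.

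At 8 hours after dexamethasone a small share of all probe sets passed the threshold, and the median rise was larger than the median fall. Of the probe sets tested, 443 were higher (0.984%) and 339 were lower (0.753%), with a median rise of 1.15 and a median fall of -0.88 on the log2 scale. Rises of at least 2 log2 units were more frequent than such falls, with 56 probe sets up and 14 down. At an unadjusted p under 0.05 stood 5039 probe sets. With 5 arrays a group, the count of calls need not be the share that changed. Many probe sets were dim, with a median level of 2.45 over all and 6.17 over those called. When only the 11692 probe sets with a mean of at least 4 were fitted, 921 were called, 497 higher and 424 lower. By representative probe set, 243 of 18193 genes rose (1.34%) and 221 fell (1.21%). These are the shares over all genes to set beside the counts of each list below. The groups did not overlap for 1717 probe sets (3.81%), among them 393 of those called higher and 293 of those called lower. The median difference over all probe sets was -0.01. The total of 782 calls depended on single arrays. It was 481 without dexamethasone array D, 448 without dexamethasone array F, 488 without saline array E and 473 without saline array F. It was 558 without dexamethasone array A, 526 without dexamethasone array E, 559 without saline array A and 687 without saline array C. Without dexamethasone array C it was 801, and without saline array B 823.

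**Figure D1:**
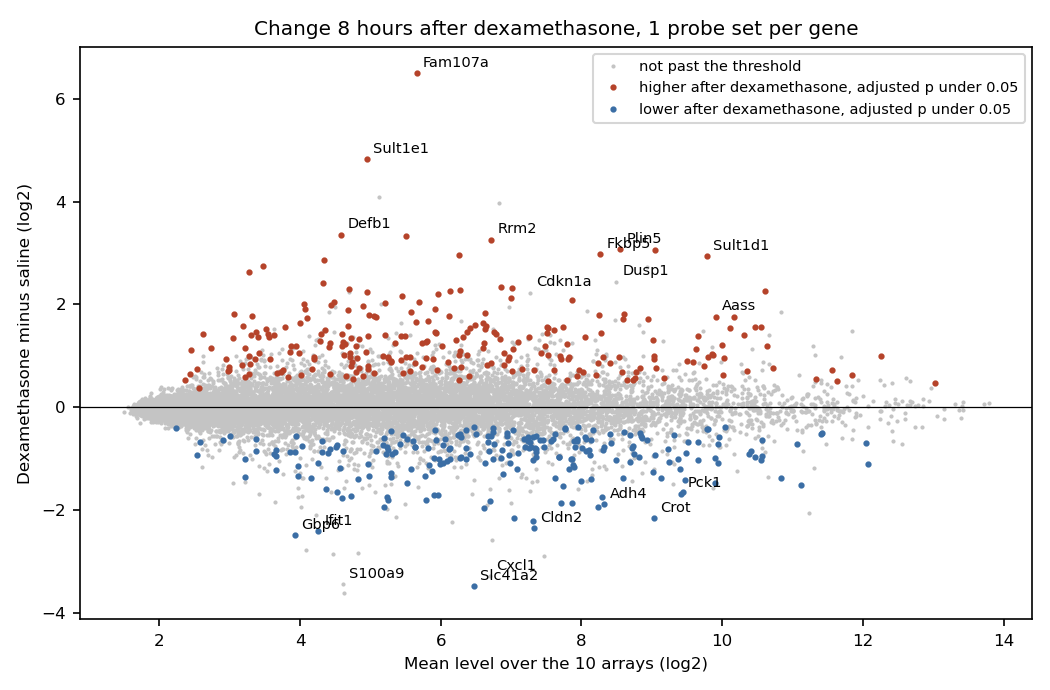
Difference between dexamethasone and saline (log2) against the mean level over the 10 arrays (log2), 1 point for each of 18193 genes. The 243 genes that rose reach 6.50 for Fam107a, the 221 that fell reach -3.47 for Slc41a2, and the immune genes S100a9 and Cxcl1 lie far below 0 without passing the threshold.

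Fam107a, which encodes a small actin-associated protein, had the largest rise. Its level was 8.94, 7.72, 9.06, 9.54 and 9.28 in dexamethasone arrays, against 1.91, 3.56, 2.19, 2.19 and 2.20 in saline arrays. The saline values lie near the bottom of the scale of these arrays and the groups are separated by a wide gap. The difference was 6.50 (SE 0.53, adjusted p = 2.54e-06), and further probe sets of the gene gave 4.96 and 3.48. Sult1e1, the oestrogen sulfotransferase, which inactivates oestrogens, followed with 7.73, 6.19, 7.50, 8.16 and 7.26 in dexamethasone arrays, against 2.39, 2.46, 3.04, 2.74 and 2.08 in saline arrays. Its difference was 4.82 (SE 0.53, adjusted p = 7.9e-05) and it too was near the bottom of the scale in saline livers. A second sulfotransferase, Sult1d1, was already abundant after saline and rose by 2.95 (SE 0.38).

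Other large rises included genes of the lipid droplet, of nucleotide supply and of defence. Plin5, which coats lipid droplets and ties them to mitochondria, had 10.2, 9.63, 10.0, 10.0 and 10.5 in dexamethasone arrays, against 7.22, 7.64, 6.96, 6.91 and 6.32 in saline arrays. The groups were tight and well separated, with a difference of 3.08 (SE 0.25, adjusted p = 2.54e-06). Rrm2, the small subunit of ribonucleotide reductase, which makes deoxynucleotides, had 8.36, 8.69, 8.18, 7.95 and 8.59 in dexamethasone arrays, against 5.00, 6.04, 5.14, 4.78 and 4.49 in saline arrays. Its difference of 3.26 (SE 0.39, adjusted p = 0.000153) was shared by further probe sets at 2.97 and 3.12. With all arrays it was the only one of 22 measured proliferation genes that passed (1 more fell without saline array B), and the list median was -0.03. That median rests largely on dim genes. When only probe sets with a mean of at least 4 were fitted, 5 members remained, of which 1 rose and 0 fell, with a median of -1.205. Mcm6, a replicative helicase subunit, Tk1, thymidine kinase, and cyclin Ccnd1 had differences of -1.37, -1.21 and -1.98 and did not pass.

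The remaining large rises spanned several functions. Defb1, a beta-defensin, had 6.15, 5.01, 6.55, 7.17 and 6.43 in dexamethasone arrays, against 2.61, 3.47, 2.78, 3.11 and 2.55 in saline arrays, a difference of 3.36 (SE 0.50). Omd, a proteoglycan best known from bone matrix, rose by 3.32 (SE 0.68), and Rarres1, a gene named for its response to retinoids, rose by 3.05 (SE 0.64). Klf10, a zinc finger transcription factor of the TGF-β pathway and the only called member of 22 immediate early genes, rose by 2.97 (SE 0.64). Morc4, a chromatin protein, rose by 2.87, the uncharacterised Gm19439 by 2.74, Serpina5, the protein C inhibitor, by 2.64, the phosphatase Dusp14 by 2.41 and Frmd8 by 2.35. No dexamethasone array overlapped a saline array for any of these genes, which was a condition for naming them as large rises. Klf10 lost its call without dexamethasone arrays D or F or saline arrays A or E (adjusted p 0.0504 to 0.0627), and Gm19439 without dexamethasone arrays D, E or F or saline array F (adjusted p 0.0508 to 0.0589).

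**Figure D2:**
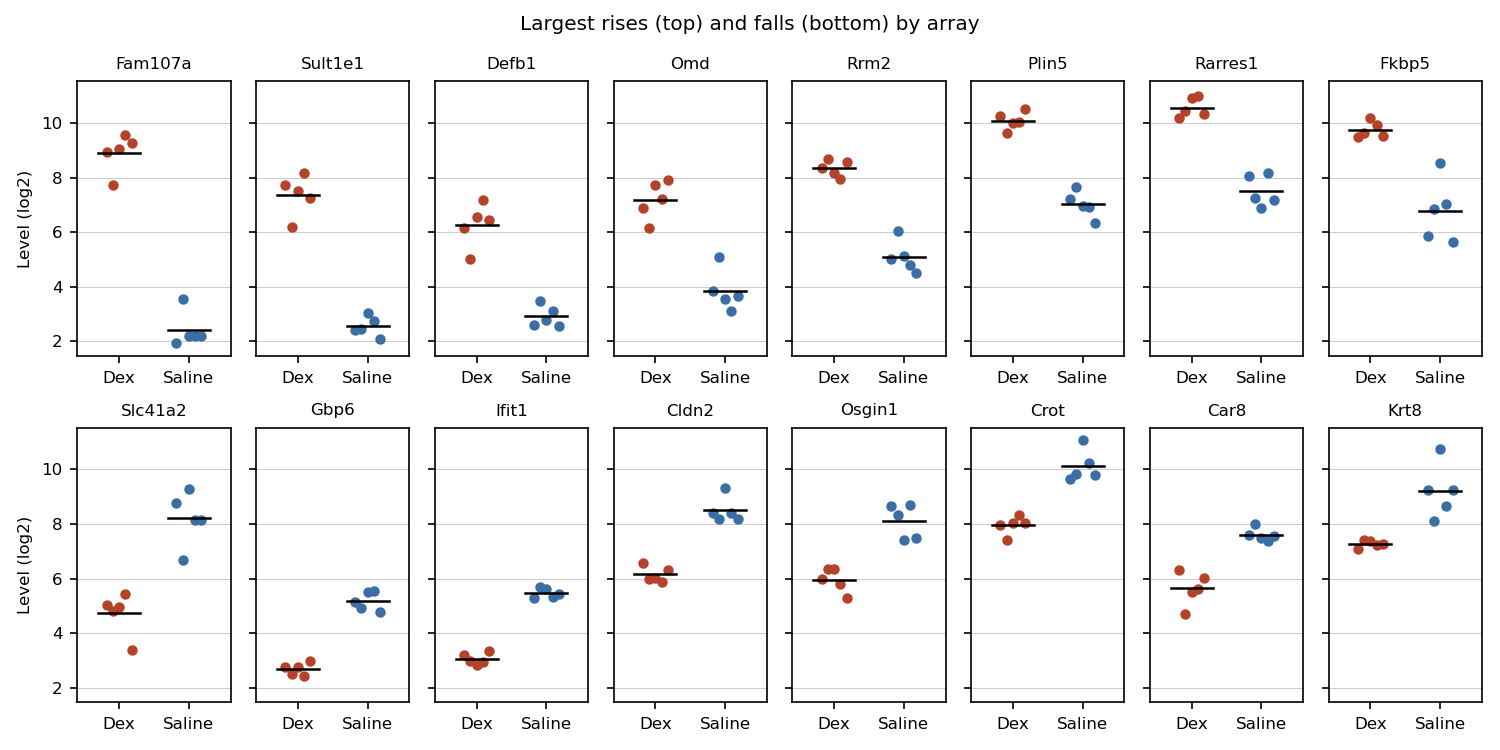
Level (log2) of the 8 genes with the largest rises (top) and of 8 of the genes with the largest falls (bottom), 1 dot per array, dexamethasone left and saline right in each panel, with the group mean as a bar. The genes were taken only from called genes whose groups do not overlap, so no overlap can appear in these panels. Single saline arrays lie high for Fam107a and Fkbp5.

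The largest falls included transporters, junction and cytoskeletal genes and an alcohol dehydrogenase. Slc41a2, a magnesium transporter, had 5.04, 4.82, 4.96, 5.43 and 3.39 in dexamethasone arrays, against 8.76, 6.69, 9.29, 8.14 and 8.14 in saline arrays. It fell by 3.47 (SE 0.75, adjusted p = 0.0185), with a wide spread in both groups, and its call was lost without dexamethasone array F (adjusted p = 0.0667) or saline array A (adjusted p = 0.0508). Adh4, an alcohol and retinol dehydrogenase, had 7.41, 7.14, 7.20, 7.65 and 7.48 in dexamethasone arrays, against 9.38, 8.999, 9.19, 9.09 and 9.63 in saline arrays. It fell by 1.88 (SE 0.17, adjusted p = 7.38e-06), with little spread. Crot, the peroxisomal carnitine octanoyltransferase, had 7.98, 7.41, 8.04, 8.33 and 8.04 in dexamethasone arrays, against 9.64, 9.83, 11.1, 10.2 and 9.79 in saline arrays, a difference of -2.15 (SE 0.25). A dim second probe set of Crot gave -0.16 and was not called.

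Among structural genes, the tight junction gene Cldn2 had 6.57, 5.98, 6.02, 5.88 and 6.31 in dexamethasone arrays, against 8.41, 8.20, 9.33, 8.39 and 8.20 in saline arrays, a difference of -2.35 (SE 0.34). Krt8, a keratin of hepatocyte intermediate filaments, fell by 1.94 (SE 0.42), and its saline levels ranged widely, with the highest, 10.8, in array C. Lin7a, a cell polarity scaffold, fell by 1.94 (SE 0.29) and the membrane-bound guidance ligand Efna1 by 1.83 (SE 0.27). Osgin1, an oxidative stress response gene, fell by 2.16 (SE 0.36) and Tlcd2, a membrane lipid regulator, by 1.87 (SE 0.28). The uncharacterised 1810008I18Rik and 1810058I24Rik had differences of -2.22 and -1.87. Krt8 lost its call without dexamethasone arrays A or F or saline array F (adjusted p 0.0502 to 0.0515). Car8, a carbonic anhydrase-related protein, had a difference of -1.97 and lost its call in 9 of the 10 fits that left out 1 array, all but that without dexamethasone array A (adjusted p 0.0505 to 0.0768).

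The list of glucocorticoid targets held 29 measured genes, of which 3 rose, none fell and 26 did not pass, with a median difference of 0.44 against -0.02 over all genes. Those that rose were Sult1e1, Fkbp5 and Lpin1. Fkbp5, a co-chaperone that lowers the affinity of the receptor for hormone, had 9.50, 9.63, 10.2, 9.94 and 9.52 in dexamethasone arrays, against 5.85, 6.84, 8.54, 7.01 and 5.64 in saline arrays. Saline array C was the highest of its group and still below every dexamethasone array, and the difference was 2.98 (SE 0.55, adjusted p = 0.00565). Lpin1, a phosphatidate phosphatase that makes diacylglycerol and a coregulator of fat oxidation, had 11.3, 10.955, 10.7, 11.2 and 11.1 in dexamethasone arrays, against 8.66, 10.9, 8.27, 9.13 and 9.46 in saline arrays. Saline array B lay within the dexamethasone range, and the difference was 1.76 (SE 0.40, adjusted p = 0.027). The call of Lpin1 was lost without dexamethasone arrays A, E or F or saline arrays A, C, E or F (adjusted p 0.0566 to 0.0811). The list had 2 called members without dexamethasone arrays A, E or F or saline arrays A, E or F, and 4 without saline array B. Its count also depended on the fit. With all 59 arrays in 1 fit 9 members rose and 1 fell, and with only the groups compared 5 rose and 1 fell. When only probe sets with a mean of at least 4 were fitted, 25 members remained, of which 6 rose and 0 fell.

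Several textbook targets had large differences that missed the threshold. Dusp1, the phosphatase that switches off p38 and JNK, had 9.26, 9.54, 10.1, 9.73 and 9.95 in dexamethasone arrays, against 7.72, 7.50, 6.74, 6.05 and 8.36 in saline arrays, without overlap (2.44, SE 0.62, adjusted p = 0.0511). The cell cycle inhibitor Cdkn1a had 7.53, 8.46, 8.96, 8.57 and 8.42 in dexamethasone arrays, against 4.58, 6.91, 8.50, 5.71 and 5.09 in saline arrays (2.23, SE 0.58, adjusted p = 0.0588), and it was called without saline array C. Tsc22d3, the leucine zipper protein GILZ, did not overlap between the groups (1.03, SE 0.34, adjusted p = 0.171). Zbtb16, a zinc finger repressor, had 1.22, Pik3r1, a regulatory subunit of PI3-kinase, 1.14 and Gadd45b 1.09. A dimmer probe set of Pik3r1 was called, at 2.00 (SE 0.35, adjusted p = 0.00394), and its other probe sets, at 1.03 and 1.11, were not. Tat, the tyrosine aminotransferase used for decades as a hepatic glucocorticoid readout, had a difference of 0.46 (SE 0.21, adjusted p = 0.416), on saline levels of 10.8 to 11.6.

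Several other members did not pass either. Sgk1, a kinase induced by steroids in many cells, had 5.74, 5.07, 6.17, 6.88 and 6.15 in dexamethasone arrays, against 5.66, 6.55, 5.98, 5.35 and 6.49 in saline arrays, a difference of -0.0046 (SE 0.41). The metallothioneins Mt1 and Mt2, which bind zinc and copper, ranged from 8.96 to 12.9 and from 6.87 to 12.3 in saline arrays, and had differences of -0.01 (SE 1.01) and -0.52 (SE 1.29). A much dimmer probe set of Mt1 gave -1.95 (SE 0.50, adjusted p = 0.0511) and was not called. Nfkbia, the NF-κB inhibitor, had -0.09, the clock gene Per1 0.48, and Lcn2 -0.04 (SE 1.09), with its lowest value in saline array B. Igfbp1, which binds IGF, had -1.24 (SE 0.47). Tgm2, a transglutaminase, had -1.20 (SE 0.42, adjusted p = 0.216), between -1.36 and -1.10 when 1 array was left out, and 4 of its other 5 probe sets gave -1.27 to -1.03, none of them called. Beside these targets, 0 of 17 measured genes of receptor and hormone handling passed, with a median of 0.08, and 1 fell without saline array C. The lowest was Serpina6, corticosteroid-binding globulin, at -1.32 (SE 0.36, adjusted p = 0.0794), with saline levels of 7.99 to 9.40 above every dexamethasone array, at 7.20 to 7.80.

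The promoters of these genes were read from RefSeq on GRCm38.p6, in the 250 bases before each start, to show whether the letters of a receptor element lie there. The element searched was AGAACA and TGTTCT with 3 bases of any kind between them, which is its own reverse complement. It occurred in 3 of 27025 genes of the promoter table (0.0111%), and Sgk1 was the only list member among them. The stretch of Sgk1 at chr10:21993649-21993768, plus strand, has the element in capitals.
Sgk1: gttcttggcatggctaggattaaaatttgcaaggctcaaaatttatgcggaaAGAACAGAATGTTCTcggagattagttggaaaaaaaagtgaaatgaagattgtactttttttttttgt
This start is 1 of 6 of Sgk1 in the table. No match in the window of Fkbp5, Sult1e1 or Lpin1 says only that these letters are absent from it. The single hexamer AGAACA or TGTTCT is frequent, in 18.2% of genes of the table.

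Genes of glucose production moved in both directions. Of 22 measured genes of gluconeogenesis and glycogen, 3 rose, 1 fell and 18 did not pass, with a median of 0.49. Slc37a4, which carries glucose 6-phosphate into the endoplasmic reticulum for its final hydrolysis, had 10.9, 10.8, 10.981, 10.9 and 10.9 in dexamethasone arrays, against 9.41, 9.93, 8.99, 9.14 and 9.25 in saline arrays. The dexamethasone values were nearly equal, and the difference was 1.54 (SE 0.19, adjusted p = 0.000199). Pcx, pyruvate carboxylase, rose by 1.03 (SE 0.20) and Gpt2, the mitochondrial alanine aminotransferase, by 0.89 (SE 0.18). Pck1, the enzyme that commits oxaloacetate to gluconeogenesis, went the other way, with 8.67, 8.26, 8.93, 9.57 and 7.46 in dexamethasone arrays, against 9.67, 10.5, 10.3, 10.4 and 10.4 in saline arrays. It fell by 1.68 (SE 0.39, adjusted p = 0.0295), and its call was lost without dexamethasone arrays A, C or F or saline arrays B, C, E or F (adjusted p 0.0585 to 0.0979). The glucose 6-phosphatase G6pc had a difference of 1.41 (SE 0.58, adjusted p = 0.325) with saline levels from 8.66 to 10.9.

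Amino acid breakdown showed 4 rises and 1 fall among 24 measured genes, with a median of 0.33. Aass, which starts lysine breakdown, had 10.7, 10.8, 11.039, 10.7 and 10.7 in dexamethasone arrays, against 9.14, 9.80, 9.31, 8.51 and 8.38 in saline arrays, a difference of 1.76 (SE 0.21, adjusted p = 0.000153). Asl, the argininosuccinate lyase of the urea cycle, rose by 1.55 (SE 0.29, adjusted p = 0.00554). Tdo2, which opens the tryptophan ring and is a known target of the receptor in liver, had 12.7, 12.7, 12.8, 12.8 and 12.8 in dexamethasone arrays, against 11.7, 12.4, 11.4, 11.6 and 11.8 in saline arrays (0.99, SE 0.21, adjusted p = 0.0187). Saline array B was again the closest to the dexamethasone arrays. Tdo2 lost its call without dexamethasone array F or saline arrays C or E (adjusted p 0.0509 to 0.0573). Agxt, which detoxifies glyoxylate, fell by 1.37 (SE 0.26), and Gpt2 is the remaining member that rose. The urea cycle genes Cps1 and Arg1 had differences of 0.57 and 0.52 and did not pass.

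**Figure D3:**
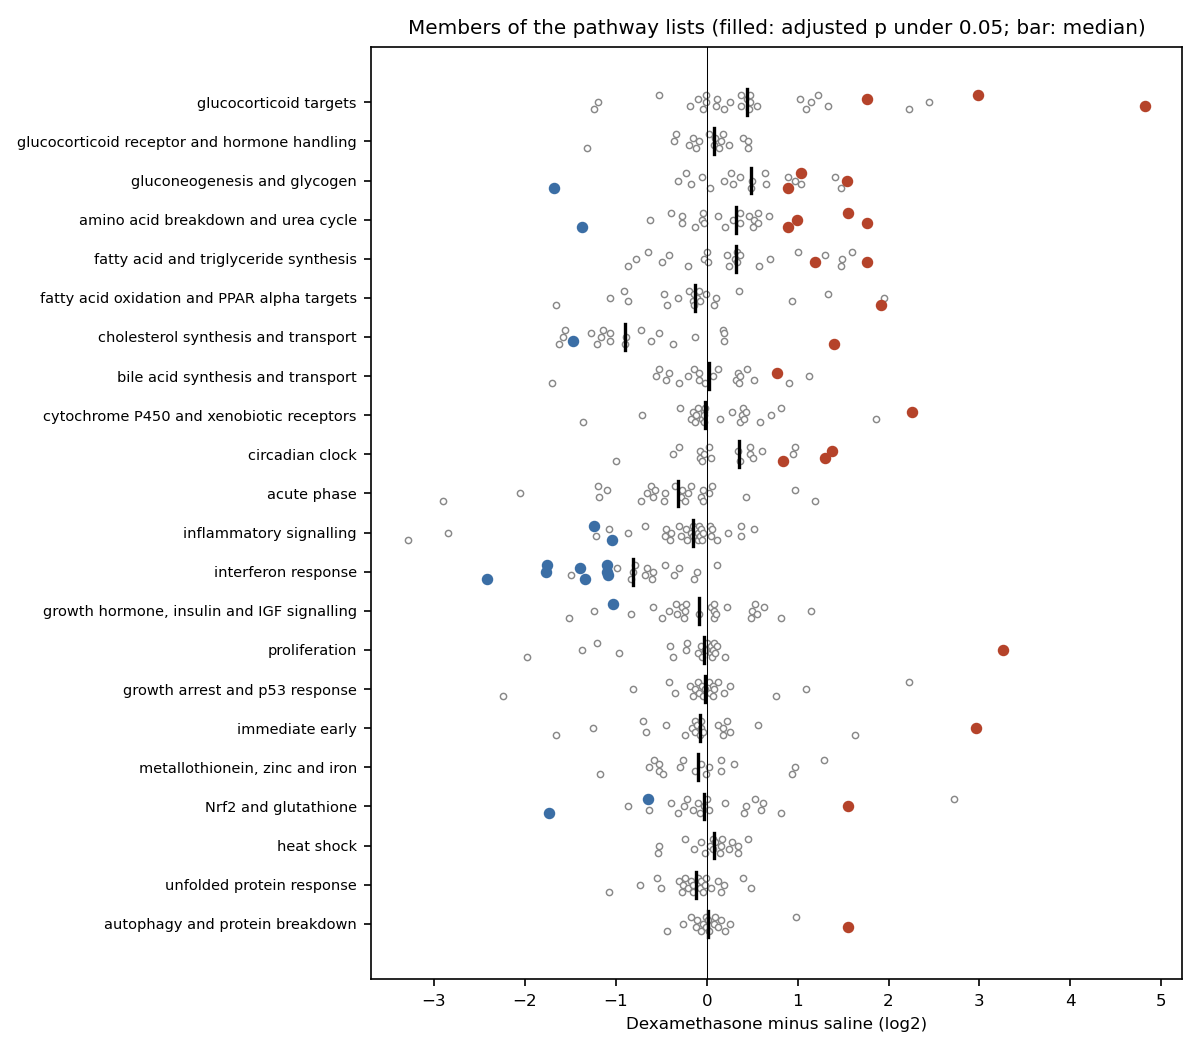
Differences between dexamethasone and saline (log2) of the measured members of 22 pathway lists, 1 dot per gene, filled where the adjusted p was under 0.05, with the list median as a bar. The interferon response list has 8 filled dots, all below 0, the glucocorticoid targets have 3, all above 0, and the unfolded protein response and heat shock lists have none.

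All calls in 2 lists of lipid genes were rises, and over all genes 1.34% rose. Of 24 genes of fatty acid and triglyceride synthesis 2 rose, Lpin1 and Khk, the fructose kinase (1.19, SE 0.29, adjusted p = 0.0402), with a list median of 0.32. None of the 24 was called without dexamethasone arrays A, E or F or saline arrays A, C, E or F, and 1 without dexamethasone arrays C or D. Khk lost its call in 9 of the 10 fits that left out 1 array, all but that without saline array B (adjusted p 0.0563 to 0.105). Of 22 genes of fatty acid oxidation and PPAR alpha targets, 1 rose, Acot1, a cytosolic acyl-CoA thioesterase (1.91, SE 0.41, adjusted p = 0.017), which lost its call without dexamethasone array D (adjusted p = 0.0591) or F (adjusted p = 0.0511). Fgf21, the fasting hormone made by liver, had a difference of 1.95 (SE 0.59, adjusted p = 0.117), and Pnpla2, the lipase of lipid droplets, had 0.93 (SE 0.27, adjusted p = 0.099). Most members of this second list were not positive, with 7 of 22 differences above 0 and a median of -0.12. Cpt1a, for example, had -1.06 (SE 0.37, adjusted p = 0.203). The droplet gene Plin5, described above, is in neither list.

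The cholesterol list had the lowest median of all pathway lists, -0.90 over 21 genes, in which 1 member fell and 1 rose. Without dexamethasone array C 3 fell, and without saline array B 2 fell, Lss among them in both cases. Sc5d, a late sterol desaturase, fell by 1.47 (SE 0.19, adjusted p = 0.000229), while its other two probe sets gave -0.45 and -0.30 and were not called. Insig2, which retains the SREBP cleavage complex in the endoplasmic reticulum and so restrains sterol synthesis, rose by 1.40 (SE 0.22), with 11.4, 10.6, 10.9, 11.2 and 10.9 in dexamethasone arrays, against 9.52, 10.0, 9.85, 9.73 and 8.97 in saline arrays. Lss, lanosterol synthase, and Cyp51, lanosterol demethylase, had differences of -1.58 (adjusted p = 0.0569) and -1.63 (adjusted p = 0.105), and 17 of the 21 members were negative. A dim probe set of Cyp51 was called, at -0.97 (SE 0.17, adjusted p = 0.00422). Of 22 bile acid genes, 1 rose, the sterol hydroxylase Cyp27a1 (0.77, SE 0.16, adjusted p = 0.011). Cyp39a1, an oxysterol hydroxylase, was the only one of 25 cytochrome P450 and xenobiotic receptor genes that passed, and it rose by 2.26 (SE 0.32, adjusted p = 0.000645).

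Genes of glutathione metabolism were called in both directions. Gclc, the catalytic subunit of glutamate-cysteine ligase, had 7.28, 7.48, 7.45, 7.39 and 7.48 in dexamethasone arrays, against 9.19, 9.20, 9.73, 8.90 and 8.76 in saline arrays (-1.74, SE 0.27, adjusted p = 0.00119). Gclm, its modifier subunit, had a difference of -0.64 (SE 0.16, adjusted p = 0.0461), and the glutathione transferase Gstm2 rose by 1.55 (SE 0.39, adjusted p = 0.045). These were the 3 called members of 23 Nrf2 and glutathione genes, while over all genes 1.34% rose and 1.21% fell. Gstm2 lost its call in 9 of the 10 fits that left out 1 array, all but that without saline array A (adjusted p 0.0756 to 0.113). Gclm lost its call in 8 of them, all but those without dexamethasone array C or saline array B (adjusted p 0.0591 to 0.144).

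Interferon-response genes formed the largest group that changed in 1 direction. Of 23 measured genes 8 fell, none rose and 15 did not pass, 22 of 23 differences were negative, and the list median was -0.81. Ifit1, which binds foreign RNA caps, had 3.20, 2.97, 2.83, 2.93 and 3.35 in dexamethasone arrays, against 5.28, 5.69, 5.63, 5.30 and 5.43 in saline arrays. The groups were tight and far apart, with a difference of -2.41 (SE 0.39, adjusted p = 0.00181). Irf9, the DNA-binding subunit of the interferon complex ISGF3, had 4.01, 4.32, 4.43, 3.86 and 4.06 in dexamethasone arrays, against 5.21, 5.41, 5.98, 5.46 and 5.56 in saline arrays (-1.39, SE 0.21, adjusted p = 0.00127). Stat2, the partner of Irf9 in that complex, had a difference of -1.09 (SE 0.27, adjusted p = 0.0409) and overlapped between the groups. Ifit3, a relative of Ifit1, had -1.76, Rsad2, the antiviral enzyme viperin, -1.75, Psmb9, an immunoproteasome subunit, -1.34, the regulator Irf7 -1.10 and the GTPase Igtp -1.08. Rsad2, Irf7, Igtp and Stat2 are named here after their values were seen, to complete the count.

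Outside the list, the interferon-inducible GTPase Gbp6 had 2.75, 2.51, 2.77, 2.42 and 2.97 in dexamethasone arrays, against 5.15, 4.90, 5.49, 5.54 and 4.78 in saline arrays. Its difference of -2.49 (SE 0.22, adjusted p = 5.14e-06) had the smallest p among the falls named here, and the interferon-inducible chaperone Rtp4 fell by 1.81 (SE 0.33). In the inflammatory signalling list, 2 of 35 genes fell, the cytokine Il18 (-1.24, SE 0.27) and the interferon regulatory factor Irf1 (-1.04, SE 0.23), with a list median of -0.15. Many members were dim. When only probe sets with a mean of at least 4 were fitted, 14 members remained, of which 5 fell, with a median of -0.63. Genes high in saline arrays alone can pass that cut. The 8 calls of the interferon list were also 8 without the arrays apart, with a median of -0.86. They were 5 without saline array E, 9 without saline array B and 6 without dexamethasone arrays E or F or saline arrays A, C or F, and the median lay between -0.92 and -0.66 in the fits that left out 1 array. Stat2 lost its call in 7 of these fits (adjusted p 0.0562 to 0.117), Igtp in 5 (adjusted p 0.0503 to 0.0861) and Irf7 in 3 (adjusted p 0.0543 to 0.0599). Both inflammatory calls were lost without saline array E, where Il18 had an adjusted p of 0.0581, and Irf1 was also lost without dexamethasone arrays E or F or saline array A (adjusted p 0.0655 to 0.0838). Markers of several immune cells were highest in saline array E. The mean level of 12 neutrophil markers was 2.98 to 3.15 in dexamethasone arrays and 3.09 to 5.93 in saline arrays, and that of 14 Kupffer cell markers was 5.86 to 6.35 in dexamethasone arrays and 5.92 to 8.26 in saline arrays.

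Promoter letters of the interferon genes that fell are shown because such genes are driven through a repeated element. The letters searched were GAAA and GAAA with 2 bases of any kind between them, on either strand, in the 250 bases before the start. They occurred in 3.13% of 14452 genes on the array that have a promoter in the table, in 10 of 19 such members of the list, and in 5 of the 8 that fell. The printed stretches, in the direction of transcription with the matches in capitals, are chr19:34640739-34640858 (plus strand) for Ifit1, chr19:34583335-34583454 (plus strand) for Ifit3, chr12:26456508-26456627 (minus strand) for Rsad2, chr10:128270248-128270367 (plus strand) for Stat2 and chr11:58199436-58199555 (plus strand) for Igtp.
Ifit1: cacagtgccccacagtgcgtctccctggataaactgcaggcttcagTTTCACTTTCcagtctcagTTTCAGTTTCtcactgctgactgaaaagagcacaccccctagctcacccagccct
Ifit3: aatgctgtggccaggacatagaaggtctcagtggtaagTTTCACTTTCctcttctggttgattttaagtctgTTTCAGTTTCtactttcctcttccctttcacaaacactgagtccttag
Rsad2: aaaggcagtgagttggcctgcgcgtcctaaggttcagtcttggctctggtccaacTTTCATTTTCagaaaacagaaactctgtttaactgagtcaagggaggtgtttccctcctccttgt
Stat2: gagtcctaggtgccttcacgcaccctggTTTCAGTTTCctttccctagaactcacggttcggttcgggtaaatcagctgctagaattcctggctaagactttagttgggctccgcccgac
Igtp: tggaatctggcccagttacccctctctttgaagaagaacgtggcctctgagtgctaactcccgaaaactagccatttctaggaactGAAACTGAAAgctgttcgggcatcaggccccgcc
Ifit1 and Ifit3 hold 2 matches each and the others 1. The matches of Ifit1 lay at -104 and -85 from the start. A link between the matches and the size of a fall was not tested. The windows of Irf7, Irf9 and Psmb9 held no such letters, which says nothing of elements elsewhere. A match is a description of the letters and not evidence of binding.

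**Figure D4:**
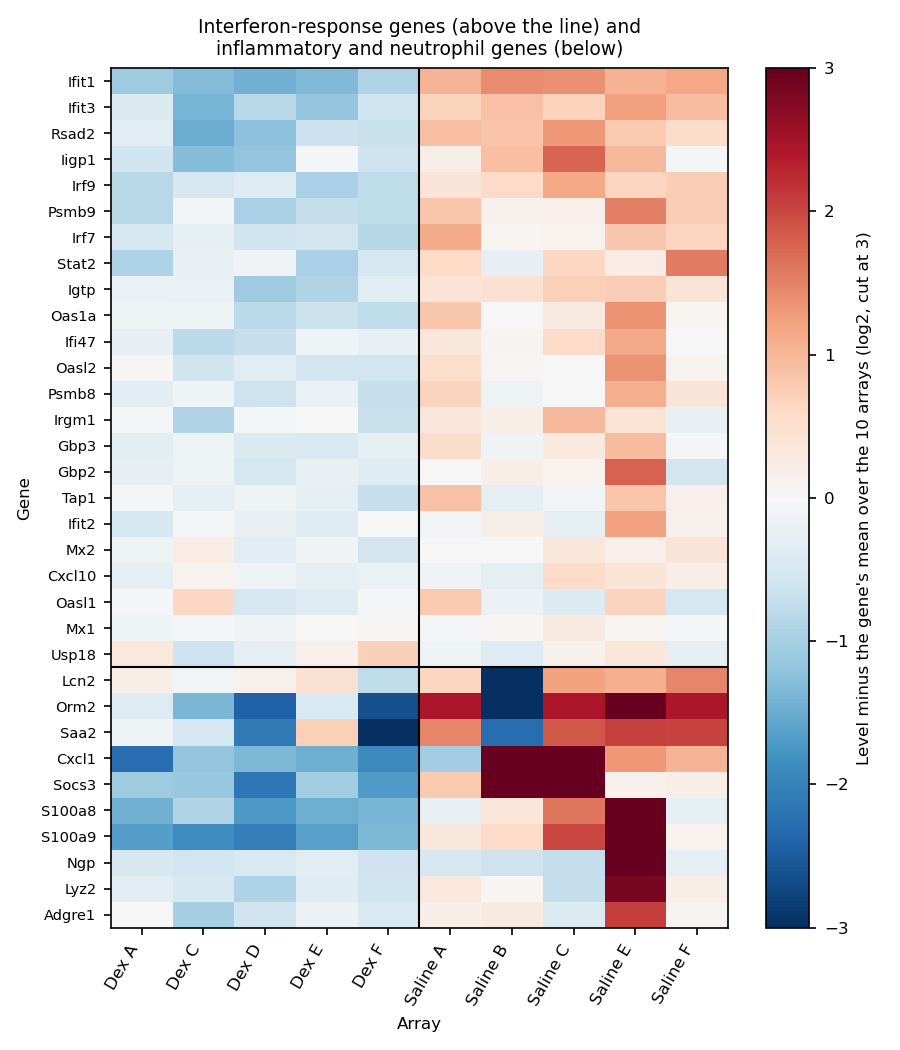
Level minus the mean of the gene over the 10 arrays (log2), with the dexamethasone arrays left and the saline arrays right, for the 23 interferon-response genes (above the line) and 10 inflammatory and myeloid genes (below). The upper rows are low in all dexamethasone arrays for Ifit1 and Ifit3, whereas in the lower rows saline array B is low for Lcn2, Orm2 and Saa2, and saline array E is high for S100a8, S100a9 and Ngp.

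No acute phase gene passed, and both groups of arrays were spread for several of them. The 26 measured members had a median of -0.32, and 21 of 26 were negative. Orm2, an acid glycoprotein, had 7.08, 6.10, 5.05, 7.01 and 4.83 in dexamethasone arrays, against 9.88, 4.37, 9.90, 10.5 and 9.88 in saline arrays (-2.90, SE 1.33, adjusted p = 0.41). Saline array B lay below every dexamethasone array, while the other 4 saline arrays lay above them all. The serum amyloid Saa2 had 11.1, 10.7, 9.11, 11.955 and 8.12 in dexamethasone arrays, against 12.7, 8.95, 13.1, 13.3 and 13.2 in saline arrays (-2.05, SE 1.06), and saline array B lay within the dexamethasone range. Without saline array B, the acute phase list still had 0 called members and a median of -0.66, and without saline array C the median was -0.21.

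A chemokine and both calgranulins had large negative differences that did not pass. The neutrophil chemoattractant Cxcl1 had 4.41, 5.50, 5.34, 5.24 and 4.77 in dexamethasone arrays, against 5.66, 10.0, 10.3, 8.00 and 7.71 in saline arrays (-3.28, SE 1.00, adjusted p = 0.125). The calgranulin S100a9 had 2.95, 2.72, 2.53, 2.99 and 3.26 in dexamethasone arrays, against 4.95, 5.18, 6.61, 10.2 and 4.72 in saline arrays (-3.44, SE 1.13, adjusted p = 0.171), and its partner S100a8 had -2.78 (SE 1.07). All saline arrays exceeded all dexamethasone arrays for these 3 genes, and saline array E was far above the rest for the calgranulins. No member of the neutrophil, monocyte, Kupffer cell, T and NK cell, B cell, MHC class II, endothelial, stellate cell or red cell lists passed. Their medians ran from -0.69 for Kupffer cells to 0.02 for endothelium. Many of these markers were dim. A mean of at least 4 over the injected arrays was reached by 3 of 12 neutrophil, 2 of 8 monocyte and 4 of 12 MHC class II markers. It was reached by 1 of 12 B cell and 0 of 19 T and NK cell markers, but by 13 of 14 Kupffer cell markers. In the lists with few such markers, the absence of calls rests largely on dim genes. Without saline array E the median was -0.32 for Kupffer cells, -0.17 for monocytes, against -0.54 with it, and -0.03 for neutrophils, against -0.49 with it, and 1 stellate cell marker was called higher. Without saline array B the neutrophil median was -0.81. The lymphatic and sinusoidal receptor Lyve1 had the largest positive difference among these markers, at 2.00 (SE 0.63, adjusted p = 0.142).

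Clock and growth genes gave a few weak calls. Of 20 clock genes 3 rose, Cry1, a core repressor (1.30, SE 0.32), Hlf, a PAR bZIP factor (1.38, SE 0.34) and Ciart, a repressor of the clock (0.84, SE 0.21), with adjusted p of 0.0425, 0.047 and 0.0447 and a list median of 0.36. Their groups did not overlap. The calls were fragile, and none of the 20 was called without dexamethasone arrays C, D or F or saline arrays C, E or F. The receptor of growth hormone, Ghr, had 10.5, 9.55, 9.78, 10.3 and 10.1 in dexamethasone arrays, against 11.2, 11.4, 11.1, 10.9 and 10.8 in saline arrays (-1.03, SE 0.20, adjusted p = 0.00843), the only call among 27 genes of growth hormone, insulin and IGF signalling. A second bright probe set of Ghr gave -0.22 (adjusted p = 0.784) and a dimmer one -1.31 (adjusted p = 0.0255). In that list 3 genes fell without dexamethasone array C, 2 fell without dexamethasone array D, and 2 fell and 1 rose without saline array B. The mitophagy receptor Bnip3 rose by 1.55 (SE 0.30, adjusted p = 0.00816), the only call among 19 autophagy genes. The only hepatocyte markers called were Tdo2 of 12 general markers, the pericentral Lect2 (-0.88, SE 0.22, adjusted p = 0.04997) and the periportal Pck1. The zonation lists held 12 and 8 genes. Lect2 lost its call in 9 of the 10 fits that left out 1 array, all but that without dexamethasone array C (adjusted p 0.0694 to 0.155). Of the growth arrest genes 1 rose without dexamethasone array C or saline array C, and of the metal genes 1 rose without saline array B. With all arrays, none of 23 growth arrest, 18 metal, 18 heat shock or 24 unfolded protein response genes passed, with list medians of -0.01, -0.10, 0.08 and -0.12, at 5039 probe sets with an unadjusted p under 0.05 over the whole table.

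Dexamethasone was also given together with arsenite, and the groups of that pair share no array with the pair above, although the fit shares its estimate of spread. Dexamethasone with arsenite against arsenite alone gave 261 probe sets higher (0.58%) and 136 lower (0.302%), 397 in all. It gave 219 without array C of dexamethasone with arsenite. Of these probe sets 254 were called in the same direction in dexamethasone minus saline, 153 higher and 101 lower, which is 32.5% of the 782 and 64.0% of the 397, and 0 were called in opposite directions. Of the 443 probe sets higher than saline, 439 were also positive in arsenite-injected mice, with a median of 0.77, and of the 339 lower, 329 were also negative, with a median of -0.61, against -0.01 over all probe sets. The members were chosen for their size in the first pair, so their smaller medians in the second are no sign of a weaker response.

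Several of the largest changes were also called in arsenite-injected mice. Fam107a differed by 5.80 (SE 0.53), Sult1e1 by 3.74, Rrm2 by 3.14, Plin5 by 2.11 and Sult1d1 by 2.56 in dexamethasone with arsenite minus arsenite, and each was called. Fkbp5 differed by 3.97 there and Lpin1 by 3.15. Defb1, Omd, Rarres1, Klf10 and Frmd8 had positive differences of 0.68 to 2.02 that did not pass. Of the 29 glucocorticoid targets 6 rose in that pair, against 3 in dexamethasone minus saline, and they included Cdkn1a (3.39, adjusted p = 0.00577), Tsc22d3 (1.53, adjusted p = 0.0347) and Per1 (1.06, adjusted p = 0.046). Among the falls, Gbp6 had -2.18, Crot -2.01, Adh4 -1.61 and Cldn2 -1.78, all called. None of the 23 interferon-response genes was called there, with a median of -0.55 and Ifit1 at -1.47 (adjusted p = 0.0953). The difference between the 2 dexamethasone contrasts, tested as an interaction with limma, was called for 0 of 45037 probe sets (1560 at an unadjusted p under 0.05, smallest adjusted p 0.9998), so none of these gaps between the pairs passed a test.

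**Figure D5:**
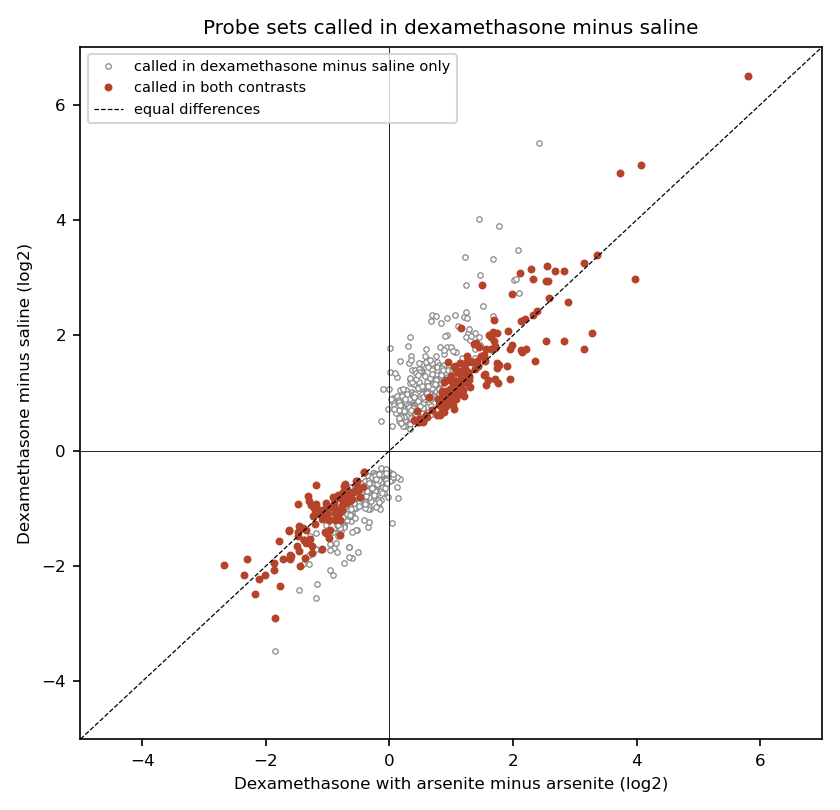
Difference between dexamethasone and saline (log2, vertical) against the difference between dexamethasone with arsenite and arsenite alone (log2, horizontal) for the 782 probe sets called in the first, filled where also called in the second, with a dashed line at equal differences. Of the 782, 439 of the 443 above 0 and 329 of the 339 below 0 keep their sign, and the 254 filled points include the highest, Fam107a at 6.50 and 5.80.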

How the data were processed

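The 59 arrays were compared as 1-colour expression arrays of mouse liver. The authors deposited log2 values per probe set, and the submitters' processing notes name RMA as the method behind them. Which program and version ran it is not stated there. They ran from 1.17 to 14.2. RMA draws dim probe sets together, so folds of dim genes can be understated. Array medians were 2.42 to 2.51 in dexamethasone arrays and 2.43 to 2.51 in saline arrays, and no 2 arrays were duplicates (highest correlation 0.994). Of 45101 probe sets 64 controls were left out. A single symbol was given for 34945 by the platform annotation, 932 had several, and 10092 had no single symbol and stay unnamed. The gene IDs of 34741 were found in RefSeq (GRCm38.p6).

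In R 4.3.3, limma 3.58.1 was run on the 4 injected groups together, with 1 mean per group, moderated statistics and Benjamini-Hochberg adjustment over all probe sets. The fit was tested on simulated data. Lists of 749 entries (676 measured) in 22 pathway and 16 cell type groups were written from textbook knowledge, with earlier results of these data known, as were the members, rules and tests. Named genes are the 15 largest rises and falls that passed and did not overlap, the glucocorticoid targets, and up to 4 members with the smallest p per list, of which fewer are named. Alternatives were the arrays fitted, moderation, normalization, dim probe sets, 1 probe set per gene, the replicate letter as a block and each array left out. The arrays lying apart, as a block or left out, were added after seeing the data. Same-letter arrays of the 2 groups had correlations of -0.248 to 0.263, and different-letter arrays ran from -0.34 to 0.479. So few same-letter pairs cannot tell whether the letters pair the mice.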

Additional observations from a re-analysis of the deposited data

Results flagged for a closer look

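In 20 of 238 groups of 5 arrays (8.4%), for the genes named here, 1 array lay far from the other 4, with a gap of more than 0.71 of the range of its group. Chance flags about 1 in 20 groups, and genes that move together are flagged together. Saline array B accounted for 6 of the 20. It was low for the acute phase genes Lcn2 (6.185), Orm2 (4.373) and Saa2 (8.953), where the other saline arrays had at least 11.175, 9.885 and 12.703. It was also low for 1810058I24Rik (7.994) and high for Fam107a (3.556) and Pdha1 (8.797). Saline array E was high for Ngp (7.332).

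Dexamethasone array C was low for Sult1d1 (10.641), Nfkbia (7.572) and Igfbp1 (7.755). Dexamethasone array D was high for Efna1 (6.406) and Aass (11.039). Dexamethasone array F was low for 1810058I24Rik (6.719) and Nat8f2 (8.282) and high for Pdha1 (9.237). Saline array A was high for Frmd8 (6.536) and low for Pck1 (9.666), and saline array C was high for Cldn2 (9.327), Plin2 (11.643) and Ifih1 (7.588). No cause of these values was tested.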

How the results depend on the processing

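The 782 probe sets called in dexamethasone minus saline became 1371 with all 59 arrays in 1 fit, and 448 to 823 when 1 array was left out. A fit of the dexamethasone and saline arrays alone gave 1138 calls. Treating the arrays apart as a block gave 1171. The 397 of dexamethasone with arsenite minus arsenite became 846 with all 59 arrays, 119 with only the groups compared, 620 when the arrays apart formed a block, and 219 to 487 when 1 array was left out. The 1 called fall of the cholesterol list became 7 with all 59 arrays in the fit. The interaction had 0 calls in each setting. A replicate block by letter gave 644 and 284 calls and 4 called members of the interferon list, and whether the letters pair the mice is not known. Of 84 called genes named here, 54 kept the call in every fit that left out 1 array, 30 lost it in at least 1, and none turned its sign in any setting. Of the same 84, 19 lost the call with the replicate block, 16 without the arrays apart and 7 with arrays centred on their medians. Signs turned for genes near 0 that were not called, and the cause was not tested. Without the arrays apart Lcn2 had 0.34, Sgk1 0.35 and Nfkbia 0.02. Sgk1 had 0.0114 with centred arrays and 0.23 with the replicate block, and Mt1 had 0.0167 with quantile normalization and 0.007 with centred arrays. Leaving out 1 array, Lcn2 ran from -1.13 to 0.32, Ngp from -1.27 to 0.0498, Sgk1 from -0.225 to 0.229, Mt1 from -0.57 to 0.42, Mt2 from -1.35 to 0.0062 and Nfkbia from -0.21 to 0.13. The number of arrays limits the precision.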

Other observations

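Genes outside the lists, chosen after their values were seen, extend the account of lipid droplets and of carbohydrate use. Beside Plin5, the droplet coat genes Plin4 and Plin3 rose by 1.34 (adjusted p = 0.00597) and 1.06 (adjusted p = 0.0127), while Plin2, the coat of most hepatic droplets, had a difference of -0.91 and did not pass (adjusted p = 0.282). Of pyruvate dehydrogenase, which commits pyruvate to acetyl-CoA, the subunit Pdhx had a difference of 1.61, Pdhb 1.13 and Pdha1 0.68, each called. Pdha1 lost its call in 8 of the 10 fits that left out 1 array, all but those without dexamethasone array C or saline array B (adjusted p 0.0506 to 0.0986). Txnip, an arrestin-like protein that limits glucose uptake, rose by 2.31 (adjusted p = 0.000507), its relative Arrdc4 by 1.36 and the insulin-dependent glucose transporter Slc2a4 by 1.41. Arrdc4 lost its call without saline array E (adjusted p = 0.0556), and Slc2a4 without dexamethasone arrays A or F or saline arrays A, E or F (adjusted p 0.0611 to 0.0771).

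More interferon-inducible genes outside the list were called lower, again chosen after their values were seen. They were picked because they were called, and unchanged genes of this kind were not counted, so they add no weight to the list result. They were the GTPase Irgm2 (-1.80), the nucleic acid sensor Zbp1 (-1.72), Parp14 (-1.28), Rnf213 (-1.02), Xaf1 (-0.87), the RNA sensor Ifih1 (-0.70), Parp9 (-0.63) and the kinase Eif2ak2 (-0.56). When 1 array was left out, Ifih1 lost its call in 8 of 10 fits, all but those without dexamethasone arrays A or F (adjusted p 0.0565 to 0.137). Zbp1 lost it without dexamethasone arrays E or F or saline arrays A, C, E or F (adjusted p 0.051 to 0.0698), Eif2ak2 without dexamethasone arrays A, D, E or F or saline arrays C or E (adjusted p 0.0536 to 0.0828), and Xaf1 without saline array E (adjusted p = 0.0583). Krt18, the partner of Krt8 in hepatocyte filaments, had -1.41 (adjusted p = 0.0473), and the tight junction gene Cldn1 had -1.02 (adjusted p = 0.0361). Each of them lost its call in 9 of the 10 fits, Krt18 in all but that without saline array B (adjusted p 0.0575 to 0.121) and Cldn1 in all but that without saline array C (adjusted p 0.0537 to 0.115). The related acetyltransferase genes Nat8f1, Nat8f2 and Nat8f4 had -1.37, -1.20 and -0.85, and their near-identical sequences may share probes.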
